A study of Mus musculus with 8 samples.

Results

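Leukemia stem and progenitor genes were examined in mouse acute myeloid leukemia (AML) driven by MLL-AF9, the fusion of the chromatin regulator MLL with AF9. The genes were Mef2c, Sox4, Cd34, Cd93, Eya1, Mecom, Jmjd1c, Zeb2, Id2 and Bcor, chosen by name as 10 regulators and surface proteins of such cells. The deposited table of 12823 genes held 9 of the 10, and all 9 passed the filter on low counts. Mecom was not analysed here. Mouse bone marrow progenitors had been transduced with a retroviral vector that carries MLL-AF9 and GFP, and were transplanted into sublethally irradiated recipients. The 4 new AML libraries came from this newly generated leukemia. The 4 aggressive AML libraries came, as the study describes it, from such cells after 5 serial transplantations into non-irradiated recipients. The Y-linked genes Ddx3y, Eif2s3y, Kdm5d and Uty summed to 2315 to 2574 counts in each new AML library and 0 in each aggressive one. The groups thus also differ in Y-linked RNA, and in every comparison that difference and the transplantations cannot be told apart. The first recipients were irradiated and those of the serial transplantations were not, and this difference cannot be told apart from the transplantations either. Both groups of cells carried MLL-AF9 and GFP and no further allele or drug, were transplanted into young adult C57BL/6 mice and were sorted from bone marrow as GFP+ cells. The mice were described as male. The sources used here do not explain the 0 Y-linked counts of the aggressive libraries. The labels call the libraries of a group biological replicates. Whether separate transductions lay behind them is not given in the sources used here, so p-values measure the spread between these libraries.

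Leukemia stem cells are the cells of a leukemia that can renew themselves and start it again in a new host, and serial transplantation enriches for them. MLL fusion proteins keep open a program of progenitor genes that a normal myeloid cell switches off as it matures. Mef2c, Sox4, Eya1, Zeb2 and the inhibitor Id2 act on transcription, Jmjd1c and Bcor act on chromatin, and Cd34 and Cd93 are glycoproteins of the progenitor cell surface.

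Of the 9 measured genes, Mef2c and Jmjd1c were higher in aggressive AML, each by about 1.54-fold, and Zeb2 was lower, at 0.814 of its new AML level. The call of Zeb2 was kept in 3 of the 8 fits that left out 1 library, and those of Mef2c and Jmjd1c in all 8. Sox4, Cd34, Cd93, Eya1, Id2 and Bcor did not pass the test of edgeR at an adjusted p under 0.05. The 3 called genes were 33.3% of the 9 tested, while 18.4% of all 12494 tested genes were called, 8.15% higher and 10.2% lower. With 9 genes that share is coarse. The groups did not overlap in 2 of the 9 genes, against 21.8% of all tested genes, and 4 of the 9 had an unadjusted p under 0.05, against 32.6% of all. The median log2 fold change of the 9 genes was -0.10, beside 0.00 for all tested genes.

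The stretches before the start sites of the 3 called genes are shown as the promoter sequence next to an annotated start of each gene. They are the 250 bases before a RefSeq start site in GRCm38.p6 (the build also called mm10), on the gene's own strand. Among the start sites with a promoter window at hand, the one nearest to the 5′ end of the gene was taken. The Mef2c stretch lies at chr13:83503784-83504033 on the plus strand, the Jmjd1c stretch at chr10:67126838-67127087 on the plus strand and the Zeb2 stretch at chr2:45117443-45117692 on the minus strand. Capitals mark CCAAT, the GC box GGGCGG and the TATA sequence TATAAA, read on either strand.
Mef2c: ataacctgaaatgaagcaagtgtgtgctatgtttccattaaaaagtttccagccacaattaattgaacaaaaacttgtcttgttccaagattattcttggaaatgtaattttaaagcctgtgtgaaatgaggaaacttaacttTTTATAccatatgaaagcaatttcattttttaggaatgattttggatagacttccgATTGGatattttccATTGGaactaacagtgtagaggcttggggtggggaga
Jmjd1c: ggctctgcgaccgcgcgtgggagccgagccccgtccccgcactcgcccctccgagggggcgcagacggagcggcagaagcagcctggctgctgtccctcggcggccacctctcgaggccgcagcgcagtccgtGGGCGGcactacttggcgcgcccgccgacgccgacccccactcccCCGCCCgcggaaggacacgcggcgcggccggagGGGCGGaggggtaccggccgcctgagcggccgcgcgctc
Zeb2: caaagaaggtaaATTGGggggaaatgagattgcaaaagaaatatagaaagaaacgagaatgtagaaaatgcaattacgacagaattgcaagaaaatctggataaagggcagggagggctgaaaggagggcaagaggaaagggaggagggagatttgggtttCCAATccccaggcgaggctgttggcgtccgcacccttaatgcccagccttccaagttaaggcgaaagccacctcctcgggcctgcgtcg

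The stretches of the genes that rose were unlike each other. That of Mef2c was 33.6% G and C with 1 CpG and held 2 CCAAT and 1 TATA match, whereas that of Jmjd1c was 79.6% G and C with 40 CpG and held 3 GC boxes. That of Zeb2 lay between them, at 49.6% G and C with 9 CpG and 2 CCAAT matches. Among all 32851 promoter stretches of this length, 33.8% held CCAAT, 32.7% the GC box and 12.4% TATAAA. The E-box CAGGTG, to which ZEB proteins can bind, was in 0 of these 3 stretches and in 17.2% of all, and the MEF2 site was in 0 of the 3 and in 0.508% of all. RefSeq windows were at hand for 7 of the 9 genes, in 14 windows. Other windows of the 3 called genes differed from those shown. A Jmjd1c window further downstream was 47.2% G and C with 11 CpG, 0 GC boxes and 1 ZEB E-box. Other Mef2c windows were 44.8% and 49.6% G and C, and other Zeb2 windows each held 1 GC box. Jmjd1c has a further annotated start about 30.7 kb upstream, and the stretch shown lies within the span of the gene. These matches are letters in a sequence, and no binding was measured.

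**Figure D1:**
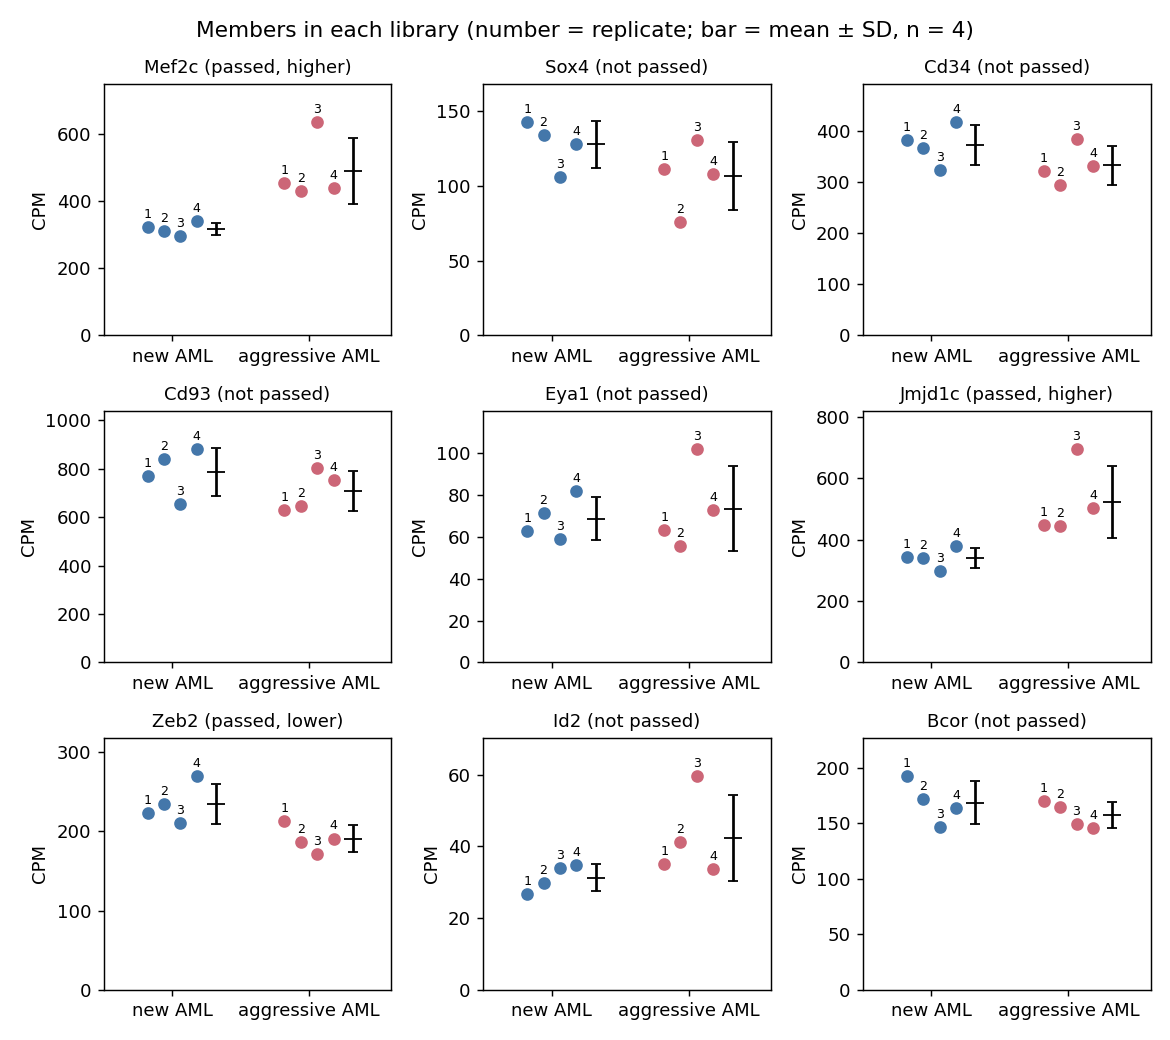
Expression of the 9 measured genes in each library, in CPM with the scale starting at 0; points are libraries numbered by replicate, and the black bar is the mean ± SD (n = 4). The groups did not overlap for Mef2c and Jmjd1c, and aggressive AML replicate 3 was the highest of its group in 7 of the 9 genes.

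Mef2c encodes a MADS box transcription factor that is active in lymphoid and myeloid progenitors and is a known dependence of MLL leukemias. It lies on chromosome 13 (83504017 to 83667079). In new AML it measured 324, 311, 298 and 340.4 CPM (counts scaled to the size of the library, with TMM factors) in replicates 1 to 4. In aggressive AML it measured 454, 429.8, 637 and 441 CPM. Each aggressive library was above each new one, and replicate 3 stood apart at the top. The difference was 0.62 on the log2 scale (SE 0.11, adjusted p = 0.00109, edgeR), and without aggressive AML replicate 3 it was 0.48 (adjusted p = 0.000292).

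Jmjd1c encodes a nuclear protein of the KDM3 group of JmjC proteins, which are known for removing methyl groups from lysine 9 of histone H3. It lies on chromosome 10 (67096351 to 67256326). It measured 345, 339, 297 and 379 CPM in new AML and 448, 445, 696 and 503 CPM in aggressive AML. Again the groups did not overlap, and the highest library was aggressive AML replicate 3. On the log2 scale the difference was 0.62 (SE 0.12, adjusted p = 0.00289), and without that library it was 0.45 (adjusted p = 0.00190). Both genes were called in each of the 8 fits that left out 1 library and in each of the 8 other alternatives.

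Zeb2 encodes a zinc finger repressor that shapes myeloid and dendritic cell fate and that many AML cells need. It lies on chromosome 2 (44983512 to 45117442). New AML gave 223, 235, 211 and 269.7 CPM and aggressive AML gave 214, 187, 172 and 191 CPM. The groups met at a single point, where aggressive AML replicate 1 was above new AML replicate 3. Zeb2 differed by -0.30 on the log2 scale (SE 0.09, adjusted p = 0.0308). This call was kept in 3 of the 8 fits that left out 1 library, and was lost without replicate 2 or 4 of new AML and without replicate 2, 3 or 4 of aggressive AML. The adjusted p reached 0.107 without new AML replicate 4 (log2 fold change -0.22). Exons of Zeb2 overlap those of 3 other annotated genes, among them Zeb2os on the opposite strand, and since the strand setting of the counting is not stated, part of the count can belong to them.

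Id2 encodes a helix-loop-helix protein without a DNA binding region, which holds E proteins away from DNA. It lies on chromosome 12 (25093799 to 25096092) and was the lowest of the 9 genes in CPM, with 26.6, 29.8, 33.8 and 34.8 CPM in new AML and 34.9, 41.1, 59.5 and 33.6 CPM in aggressive AML. The groups overlapped, and the top value was once more that of aggressive AML replicate 3. The log2 fold change of 0.43 (95% interval 0.09 to 0.78) had an unadjusted p of 0.0171 and an adjusted p of 0.0750, and so was not called. Without aggressive AML replicate 3 it was 0.23 (adjusted p = 0.207), and without aggressive AML replicate 4 it was 0.54 and called (adjusted p = 0.0353).

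Eya1 encodes a phosphatase and coactivator that works with homeobox factors. It lies on chromosome 1 (14168953 to 14311035) and measured 62.4, 71.0, 58.7 and 81.6 CPM in new AML, against 63.1, 55.4, 101.6 and 72.8 CPM in aggressive AML. Its aggressive libraries spanned both ends of the whole range. Eya1 had a log2 fold change of 0.10 (95% interval -0.24 to 0.43, adjusted p = 0.707), and without aggressive AML replicate 3 its sign turned (-0.10, adjusted p = 0.623).

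Sox4, a HMG box transcription factor that promotes self-renewal in several myeloid leukemias, lies on chromosome 13 (28948919 to 28953699). It measured 143, 134, 106 and 128 CPM in new AML and 111, 76.0, 131 and 108 CPM in aggressive AML. The lowest library was aggressive AML replicate 2, and the groups overlapped. Sox4 had a log2 fold change of -0.26 (95% interval -0.55 to 0.02, adjusted p = 0.190). Without aggressive AML replicate 3 it was -0.37 (adjusted p = 0.0541). The Sox4 exons overlap Gm26735 on the opposite strand.

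The surface proteins were abundant in both groups. Cd34, the sialomucin by which hematopoietic progenitors are sorted (chromosome 1, 194938821 to 194961292), measured 384, 367, 324 and 418 CPM in new AML and 321, 294, 386 and 333 CPM in aggressive AML. Cd93, a C-type lectin-like receptor known as a marker of MLL leukemia stem cells (chromosome 2, 148436651 to 148443535), measured 770.4, 839, 656 and 881 CPM in new AML and 629, 647, 803 and 754 CPM in aggressive AML. In both genes the mean was lower in aggressive AML while the groups overlapped widely. On the log2 scale the change was -0.16 for Cd34 (95% interval -0.36 to 0.04, adjusted p = 0.247) and -0.15 for Cd93 (95% interval -0.36 to 0.06, adjusted p = 0.312). Cd34 exons overlap Gm16897 on the opposite strand.

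Bcor encodes the corepressor that holds together a Polycomb complex of the PRC1.1 type, and is a gene of the X chromosome (12036737 to 12160516). It measured 192, 172, 146 and 163 CPM in new AML and 170.1, 165, 149 and 146 CPM in aggressive AML. The groups overlapped, though replicates 1 and 2 of new AML lay above each aggressive library. Bcor had a log2 fold change of -0.10 (95% interval -0.29 to 0.09, adjusted p = 0.490).

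**Figure D2:**
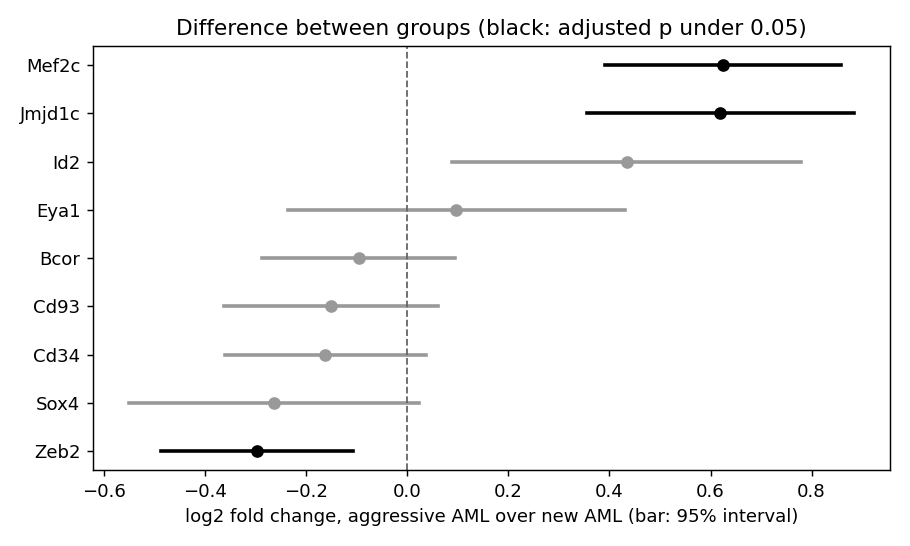
Log2 fold change of each gene, aggressive AML over new AML, with its 95% interval from edgeR; black marks an adjusted p under 0.05. Mef2c and Jmjd1c lie at 0.62 and Zeb2 at -0.30, while the interval of Id2 reaches from 0.09 to 0.78 without a call, since the interval is not adjusted for the number of genes.

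In aggressive AML, replicate 3 was the highest library for 7 of the 9 genes and the lowest for Zeb2. Over all tested genes, it was the highest of its group in 30.2% and the lowest in 33.0%. Relative to the mean of the other 3 aggressive libraries, it was 1.63 times as high for Id2, 1.59 for Eya1 and 1.44 for Mef2c, but 0.872 times as high for Zeb2 and 0.931 for Bcor. In new AML, replicate 4 was the highest for 7 genes and replicate 3 the lowest for 8, where all tested genes gave 27.8% and 29.0%. New AML replicate 3 also had the highest Irf7, an interferon-induced regulator, at 41.8 CPM against 17.1 to 24.3 CPM in the others of its group, and the part of that difference in these results was not tested. The coefficient of variation of Jmjd1c was 9.90% among the new libraries and 22.6% among the aggressive ones, and that of Eya1 was 14.9% and 27.6%.

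**Figure D3:**
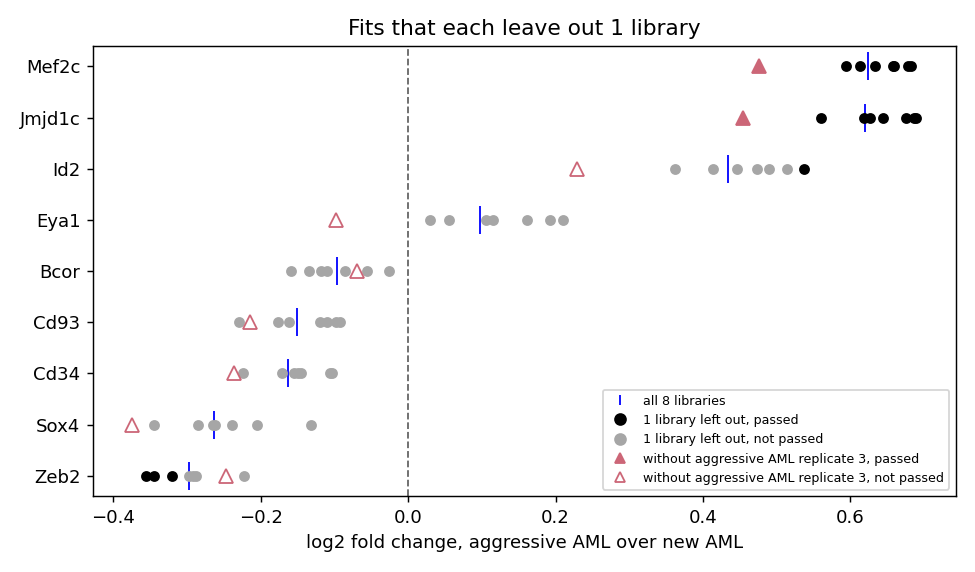
Log2 fold changes of the 9 genes when each of the 8 libraries was left out in turn, with the value from all libraries as a blue line. Triangles mark the fit without aggressive AML replicate 3, which brought Mef2c to 0.48, Jmjd1c to 0.45 and Id2 to 0.23 and turned Eya1 to -0.10.

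Levels of different genes were compared per kb of the longest GENCODE transcript. In new AML, Cd34 (122 ± 12.7 CPM per kb, SD, n = 4) and Cd93 (118 ± 14.7) came first and overlapped each other. Mef2c (50.7 ± 2.91) and Jmjd1c (39.5 ± 3.91) followed, each apart from its neighbours. Then came Sox4, Zeb2 and Bcor between 24.3 and 26.7 CPM per kb on average, overlapping, and last Id2 and Eya1 at 15.9 and 15.7. In aggressive AML the first 4 kept this order, with Cd34 at 109, Cd93 at 106, Mef2c at 78.2 and Jmjd1c at 60.7 CPM per kb. Mef2c now overlapped Cd34, Cd93 and Jmjd1c, and the other 5 lay between 16.8 and 22.7 on average. The order depends on the length used: with the mean length of all annotated transcripts, Mef2c was the second in new AML (144 CPM per kb, after Cd34 at 170.1) and the first in aggressive AML (222 CPM per kb).

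**Figure D4:**
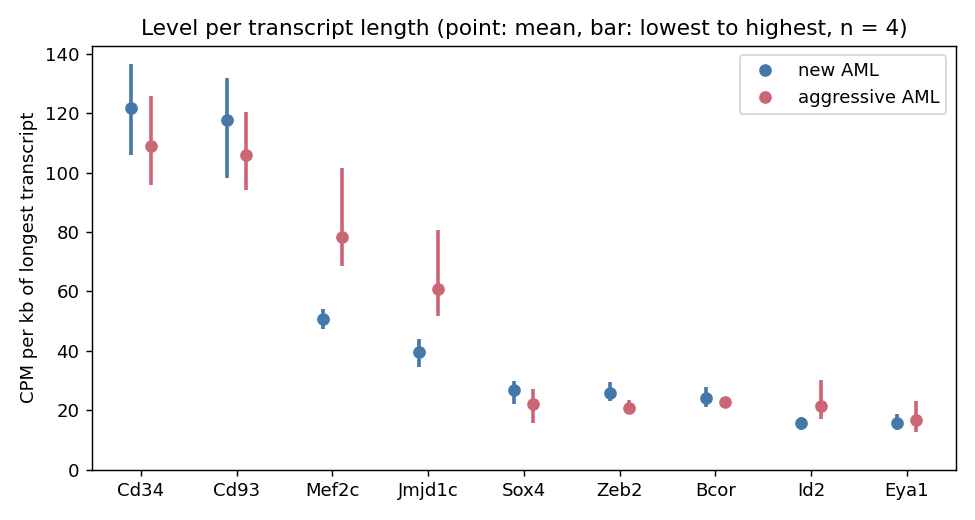
Level of each gene in CPM per kb of its longest transcript; points are group means and bars run from the lowest to the highest of 4 libraries. By their means, Cd34 and Cd93 lead in both groups, and Mef2c and Jmjd1c lie between them and the other 5 genes. In aggressive AML the bar of Mef2c overlaps those of Cd34 and Cd93.

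Partner genes of the same families and complexes were taken from lists for each gene. Of 54 partners 41 were tested, and 5 of them (12.2%) were called, 2 higher and 3 lower, a share below the 18.4% of all tested genes. Their median log2 fold change was -0.06.

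In the list around Mef2c, 1 of 9 tested genes was called. Hdac5, a class IIa histone deacetylase that binds MEF2 proteins and silences their targets, fell from 177 ± 13.4 to 143 ± 8.10 CPM (SD, n = 4, log2 fold change -0.31, adjusted p = 0.0134), without overlap. Its call was lost without new AML replicate 2 (adjusted p = 0.0532). Hdac7, of the same class, had a log2 fold change of -0.27 (adjusted p = 0.0520), and was called by DESeq2 (adjusted p = 0.0441) and with the replicate block (0.0486), though in 1 of 8 fits that left out 1 library. Mef2a (59.5 to 52.2 CPM, adjusted p = 0.159) and Mef2d (355 to 374 CPM, adjusted p = 0.597) were not called. As a share of Mef2a, Mef2c and Mef2d per kb, Mef2c made up 37.3% to 42.8% in the new libraries and 46.7% to 55.0% in the aggressive ones.

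Of the 2 KDM3 relatives of Jmjd1c, 0 were called by edgeR without a block, DESeq2 or limma, and both had an unadjusted p under 0.05, in opposite directions. Kdm3a was at 68.9 and 82.3 CPM (log2 fold change 0.26, adjusted p = 0.0910) and Kdm3b at 247 and 209.7 CPM (-0.24, adjusted p = 0.0629). Kdm3b was called with the replicate number as a block (adjusted p = 0.0322) and in 1 of 8 fits that left out 1 library, and Kdm3a in 1 of 8. Jmjd1c made up 41.3% to 45.2% of the 3 KDM3 genes per kb in new AML and 49.3% to 63.4% in aggressive AML.

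In the list around Eya1, 1 of 4 tested genes was called. Dach1, a corepressor that acts with EYA proteins, fell from 3.48 ± 1.20 to 1.12 ± 0.383 CPM (adjusted p = 0.00458), which is 7 to 13 counts per aggressive library. Eya3, the other tested EYA gene, was at 89.0 and 85.4 CPM (adjusted p = 0.744).

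In the list of helix-loop-helix partners of Id2, 1 of 5 tested genes was called. Id1, a close relative of Id2, rose from 6.85 ± 1.30 to 11.1 ± 2.23 CPM without overlap (log2 fold change 0.69, adjusted p = 0.0251). Its call was kept in 3 of 8 fits that left out 1 library, with the highest adjusted p of 0.0811 without aggressive AML replicate 2. It was lost without replicates 1, 2 or 4 of new AML or 1 or 2 of aggressive AML. The E protein genes Tcf3, Tcf4 and Tcf12, whose products ID proteins bind, had log2 fold changes of 0.10, 0.09 and 0.21 and were not called.

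Around Bcor, 1 of 10 tested genes was called. Yaf2, a subunit of variant Polycomb complexes, rose from 29.9 ± 2.55 to 40.1 ± 4.10 CPM (log2 fold change 0.42, adjusted p = 0.0141), a call lost without new AML replicate 2 (adjusted p = 0.0537). Its homolog Rybp was at 28.1 and 23.9 CPM (adjusted p = 0.177), and Kdm2b, which brings the complex to CpG-rich DNA, at 110.2 and 95.3 CPM (adjusted p = 0.0813).

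Of the relatives of Cd34 and Cd93, Thbd, which encodes thrombomodulin of the CD93 family, fell from 131 ± 15.6 to 97.6 ± 15.3 CPM (log2 fold change -0.42, adjusted p = 0.0159). The groups overlapped, and the call was lost without replicate 2 or 4 of new AML or replicate 2 of aggressive AML, at adjusted p-values up to 0.0587. The only SoxC relative tested, Sox12, was at 13.6 and 16.9 CPM (adjusted p = 0.240). Of 8 tested corepressor genes that serve ZEB and EVI1 proteins, 0 were called by edgeR, DESeq2 or limma, and 1 had an unadjusted p under 0.05. Ctbp1 was at 264 and 263 CPM.

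**Figure D5:**
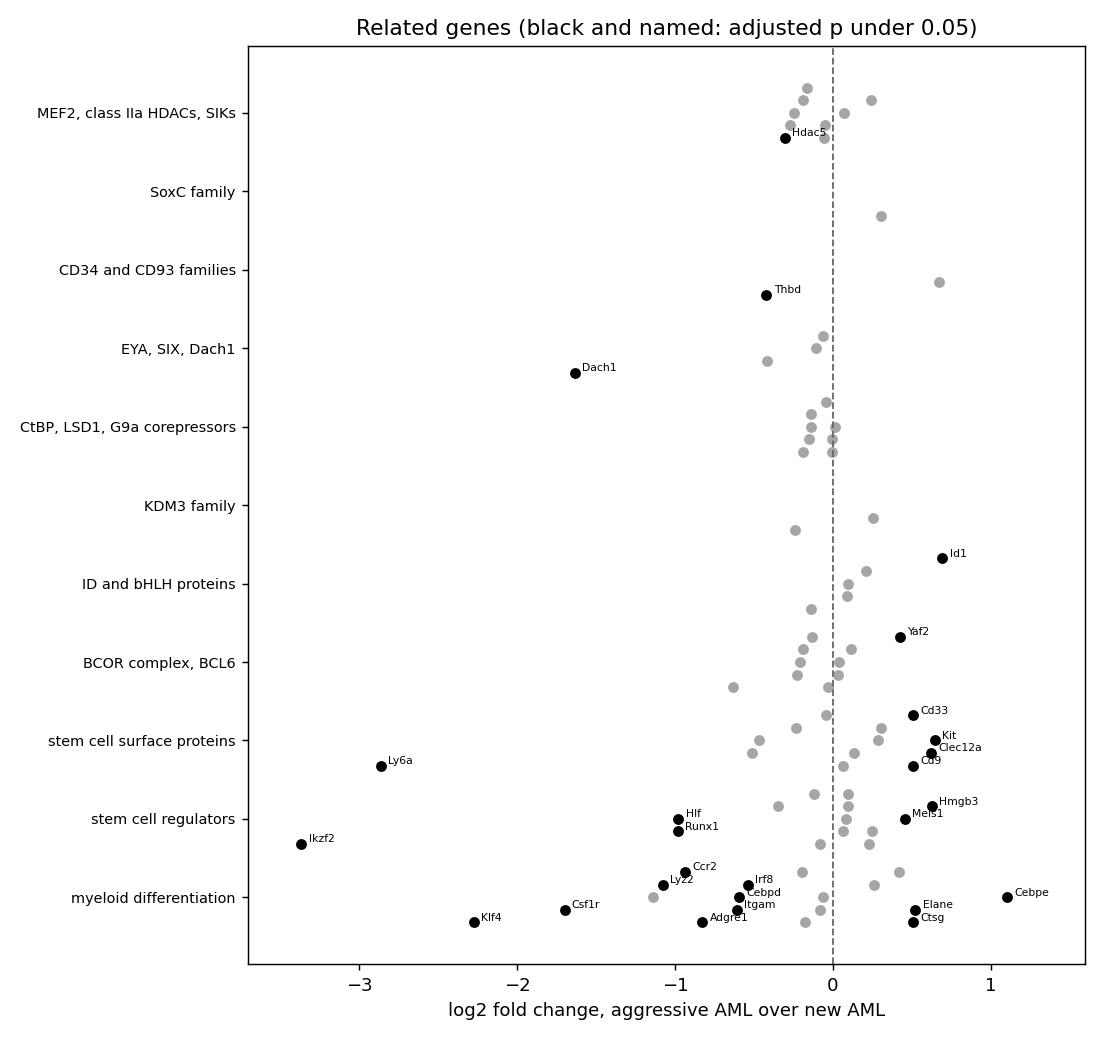
Log2 fold changes, aggressive AML over new AML, of the tested genes in each related list; black points with names passed an adjusted p of 0.05. Dach1 lies apart at -1.63 among the partners, and Csf1r and Klf4 at -1.70 and -2.27 in the myeloid differentiation list.

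Other genes of the stem cell state moved in both directions. Among stem and progenitor surface proteins, 4 of 13 tested genes were called higher and 1 lower. Over this list, the stem cell regulators and myeloid differentiation genes together, 21 of 45 tested genes (46.7%) were called, 9 higher and 12 lower. Of all tested genes, 18.4% were called, 8.15% higher and 10.2% lower. The differentiation list alone gave 11 of 18, and the stem lists gave 5 of 13 and 5 of 14. These lists were chosen with earlier results of these data known, so their shares are a description and not a test. Clec12a, a lectin receptor used as a leukemia stem cell antigen, rose from 436 ± 48.1 to 669 ± 27.6 CPM (adjusted p = 9.93e-05). Kit, the receptor of stem cell factor, rose from 105 ± 18.3 to 165 ± 17.5 CPM (adjusted p = 0.00140). Cd33 rose from 132 ± 21.7 to 187 ± 43.2 CPM (adjusted p = 0.0265), a call kept in 4 of 8 fits that left out 1 library and lost without replicate 1 or 3 of new AML or 3 or 4 of aggressive AML (adjusted p up to 0.0824). Ly6a, which encodes Sca-1, was low and fell from 4.46 ± 4.70 to 0.603 ± 0.260 CPM (log2 fold change -2.86, adjusted p = 0.00646). New AML replicate 3 gave 11.5 CPM of Ly6a against 1.90 to 2.50 CPM in the other 3, and without it the log2 fold change was -1.79.

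Among stem cell regulators, 2 of 14 tested genes were called higher and 3 lower. Hmgb3, a chromatin protein of MLL leukemia stem cells, rose from a mean of 56.1 to 86.8 CPM (n = 4, adjusted p = 0.00516). Meis1, the cofactor of HOXA9, rose from 100.4 ± 3.63 to 138 ± 28.0 CPM (adjusted p = 0.0117), with its top value of 178 CPM in aggressive AML replicate 3. Runx1 fell from 203 ± 18.6 to 103 ± 13.5 CPM (adjusted p = 9.17e-06), Hlf from 7.57 ± 1.75 to 3.84 ± 0.775 CPM (adjusted p = 0.0105) and Ikzf2, which encodes Helios, from 11.2 ± 7.15 to 1.08 ± 0.176 CPM (adjusted p = 0.000314). Exons of Meis1, Runx1 and Ikzf2 overlap genes on the opposite strand (and Meis1 a gene on its own), so their counts are uncertain to that extent.

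Genes of myeloid differentiation were called more often lower than higher, with 8 of 18 tested genes lower and 3 higher around a median log2 fold change of -0.37. Csf1r, the receptor of the macrophage growth factor, whose exons overlap Hmgxb3 on the opposite strand, fell from 166 ± 28.4 to 51.2 ± 6.42 CPM (adjusted p = 3.76e-07). Klf4 fell from 18.5 ± 9.16 to 3.81 ± 1.32 CPM (adjusted p = 0.000304) and Irf8, a monocyte regulator, from 627 ± 33.2 to 432 ± 54.1 CPM (adjusted p = 0.000657). Of the genes for granule proteins and their regulators, Ctsg rose from 1407 ± 144 to 2005 ± 148 CPM (adjusted p = 0.000636), Cebpe from 28.5 ± 7.94 to 61.0 ± 17.6 CPM (adjusted p = 0.00233) and Elane from 803 ± 146 to 1154 ± 263 CPM (adjusted p = 0.0205). The granule genes Mpo (2400 and 2092 CPM, adjusted p = 0.328) and Prtn3 (1267 and 1198 CPM, adjusted p = 0.675) of the same list were not called. Lyz2, the lysozyme gene of this list, went the other way and was lower in each of the 8 fits that left out 1 library. It was called in all 8, at a log2 fold change of -0.78 or further from 0. The call of Elane was lost without replicate 1 or 2 of new AML or 1 of aggressive AML (adjusted p up to 0.0718), and with DESeq2 (adjusted p = 0.0540).

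Markers of other bone marrow cells were also read, since endothelial, lymphoid and dendritic cells can express some of the 9 genes. Fewer cells of a type and less RNA per cell cannot be told apart in these libraries. Of 8 endothelial markers 2 were tested and 0 called, and their summed level was 9.75 to 14.8 CPM in new AML and 11.4 to 14.1 CPM in aggressive AML, most of it from Egfl7. B cell markers (2 of 7 tested, 1 lower) summed to 40.2 to 45.4 and 30.6 to 34.0 CPM, led by Cd79b, which was not called. The lower one was Cd22, called in each of the 8 fits that left out 1 library, at a log2 fold change of -4.45 or further from 0. Dendritic cell markers (3 of 6 tested, 2 lower) summed to 496 to 717 and 613 to 807 CPM, nearly all from Flt3, which leukemic progenitors also express. The 2 lower ones were Siglech and Itgax, called in each of the 8 fits that left out 1 library. Their log2 fold changes in those fits were -3.19 and -1.79 or further from 0. NK cell markers (2 of 6 tested, 1 higher) summed to 15.0 to 27.8 and 25.8 to 33.0 CPM, led by Nkg7, and T cell markers (1 of 8 tested, Bcl11b, higher) to 3.90 to 6.30 and 2.46 to 17.4 CPM. Bcl11b was lowest in aggressive AML replicate 3, and its call was kept in 1 of 8 fits that left out 1 library, the one without that library, and was lost with DESeq2 (adjusted p = 0.114). Nkg7 kept its call in 4 of these 8 fits, and the erythroid gene called, Hba-a1, in 2. Late neutrophil genes (9 of 9 tested, 8 lower) summed to 319 to 487 and 163 to 212 CPM, led by S100a8. The lists of erythroid cells (6 of 9 tested, 1 lower, led by Tfrc), macrophages (3 of 7, 0 called, led by Cd163), stroma (1 of 7, Pdgfrb, not called) and megakaryocytes (1 of 5, Itga2b, not called) summed to at most 185, 43.6, 24.9 and 8.58 CPM in any library. Interferon response genes (9 of 11 tested, 8 lower, led by Bst2) summed to 215 to 465 and 133 to 136 CPM. Bst2 kept its call in 1 of the 8 fits that left out 1 library and Ifit1 in 5, while the other called genes kept theirs in all 8. The part of these lists in the results above was not tested.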

How the data were processed

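RNA-seq of 8 libraries (4 per group) was used. Per the methods of the study, the authors aligned paired-end reads of polyadenylated RNA to mm10 with HISAT2 and counted reads per gene with Rsubread. They left out genes under 1 CPM. The authors deposited whole-number counts under a CPM name, with library totals of 7805544 to 9697777, so that 1 count is 0.103 to 0.130 CPM. The annotation and strand setting are not given in the sources used here. Of 12823 rows, 12494 had at least 1 CPM in at least 4 libraries and were tested with edgeR 4.0.16 (R 4.3.3; quasi-likelihood test, TMM, group as the only term, two-sided, Benjamini-Hochberg over all tested genes, threshold 0.05). A call is an adjusted p under that threshold. Standard errors were the fold change over the root of F. Replicates differed beyond sampling noise in all 12 pairs (chi-square per gene 4.12 to 11.3). DESeq2 1.42.0 and limma 3.58.1 on log2(CPM + 1) were alternatives, and the fit was tested on simulated data. The study itself used limma on CPM values.

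The genes and lists were chosen with earlier results of these data known. Every member was described, every called partner was named, and in the 3 larger lists up to 3 called genes with the smallest adjusted p were named in each direction. From marker lists the gene with the highest mean was named. Genes named besides these (such as Hdac7, Mef2a, Mef2d, Kdm3a, Kdm3b, Eya3, Rybp, Kdm2b, Mpo, Prtn3, Hba-a1, Siglech, Itgax, Cd22, Ifit1, Irf7 and the Y-linked genes) were chosen after their values were seen. Lyz2 was chosen in the same way. Positions and promoters are from RefSeq on GRCm38.p6, and transcript lengths and exon overlaps from GENCODE vM21. Some listed genes are not reported here and were left out of the list counts.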

Additional observations from a re-analysis of the deposited data

Results flagged for a closer look

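Mef2c measured 637.2 CPM in aggressive AML replicate 3, while the other 3 libraries of that group lay between 429.8 and 454 CPM. The gap to the nearest of them was 0.882 of the whole range of the group, above Dixon's 95% critical value for a group of 4. Of 18 groups of 4 values examined in this way (9 genes in 2 groups), 1 met that limit, and chance flags about 1 in 20.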

How the results depend on the processing

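In the 8 alternatives other than leaving out a library (DESeq2, both limma fits, RLE factors, library totals alone, no filter, a filter of 10 CPM and the replicate block), the 9 genes kept their direction and their side of the threshold in 72 of 72 values. In the fits that left out 1 library, 65 of 72 did so. Zeb2 lost its call in 5, Id2 gained one in 1, and Eya1 ranged from -0.10, a turn of sign, to 0.21. The number of members called was 2 to 3, with 2 to 3 higher and 0 to 1 lower. Over all genes, 1534 to 2381 were called, 650 to 1077 of them higher and 884 to 1304 lower, and the fewest were found without new AML replicate 2. The cause was not tested. Counts in the related lists stayed within 1.5 times in 81 of 88 values and, with a library left out, in 71 of 88. The replicate block gave 2367 called genes and 3 called members. Same-numbered libraries did not deviate together (correlations 0.0967, -0.0399, -0.0654 and 0.204), so the numbers were not taken to pair the samples. With the mean transcript length, 14 of 18 levels per kb moved by more than 1 SD. The 95% intervals of the uncalled genes reached from -0.55 (Sox4) to 0.78 (Id2).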
